A study of Mus musculus with 13 samples.

Results

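The 8 genes described here encode transcription factors that set the identity of the hepatocyte, the main cell of the liver. They are Hnf4a, the winged-helix genes Foxa1, Foxa2 and Foxa3, the leucine-zipper genes Cebpa and Cebpb, and the xenobiotic receptors Nr1i2 (PXR) and Nr1i3 (CAR). They were taken by name from the 53465 genes of the liver count table, and all 8 passed edgeR's filter on low counts, which kept 13545 genes. The choice used no measured value of these libraries, but it was made with earlier results of these data known.

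Liver RNA was sequenced from 6 WT and 7 Nod2-/- male BALB/c mice, 1 library per mouse. Nod2 is an intracellular sensor of bacterial peptidoglycan fragments, and the Nod2-/- mice carried the deletion in every cell. Every mouse of both genotypes had received the carcinogen DMBA (dimethylbenz[a]anthracene) on the skin as a pup and was then fed a high-fat diet, for 30 weeks according to the sample labels. The comparison asks how gene expression in the liver differed between the genotypes in this model of obesity-dependent liver cancer. The genotypes were bred as separate BALB/c lines and not as littermates, so differences between the lines other than Nod2 cannot be told apart from the deletion.

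Reads counted on genes came to between 14886273 and 20579984 per WT mouse and between 13824780 and 19391431 per Nod2-/- mouse. Nod2 itself had 0 to 4 counts in WT and 1 to 6 in Nod2-/- mice, too few to check the genotype labels. The tissue label held: all 10 hepatocyte markers, among them Alb and Ttr, were tested, and their summed level was 98241 to 134101 CPM, the count scaled to a common library total, in WT and 103473 to 206850 in Nod2-/- mice. Summed levels of 5 marker lists had different ranges in the genotypes, with no test of the sums. Of their tested genes, only Sox9 passed 5% FDR with edgeR. Fetal liver and liver tumor markers (6 of 8 tested, 3 of them higher at an unadjusted p below 0.05) ran from 7.11 to 355 CPM in WT and from 25.5 to 581 in Nod2-/- mice, with WT replicate 3 the highest WT mouse. Cholangiocyte markers (7 of 8 tested) were at 47.6 to 228 CPM against 120 to 417, and these sums were mostly Spp1. Of the 7, 4 had a log2 fold change above 0 and 3 below 0. Neutrophil markers (5 of 11 tested) were at 4.30 to 11.5 against 7.08 to 1052, the highest being Nod2-/- replicate 7, and macrophage markers (12 of 12 tested) at 161 to 309 against 189 to 648. Lung epithelium markers (6 of 12 tested) were at 14.8 to 205 against 3.13 to 34.4, with WT replicate 4 the highest. None of these 5 lists had a gene at 0 in every mouse, but Igf2, a fetal liver marker, had at most 1 count in any mouse. Their part in the results on the 8 factors was not tested, except where a value is given below. In RNA of whole liver, fewer hepatocytes and less RNA of a gene per hepatocyte cannot be told apart.

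HNF4A is a nuclear receptor that binds the promoters of a large share of the genes expressed in hepatocytes and holds the adult program in place. The FOXA proteins open chromatin for it during liver development and overlap in function in the adult organ. C/EBP alpha drives genes of urea and glucose metabolism, whereas C/EBP beta is induced by inflammation and regeneration. PXR and CAR sense foreign compounds and bile constituents and switch on cytochrome P450 genes such as Cyp3a11 and Cyp2b10, whose enzymes clear many drugs and other foreign compounds.

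The regions before the start sites are shown for the genes on which the results turn, Hnf4a for its lower level and its 2 starts, and Nr1i2 and Nr1i3 because their levels ran together from mouse to mouse. Each run holds the 250 bases before a RefSeq start (build GRCm38.p6), 5′ to 3′ along the gene's own strand, and all 8 genes had at least 1 such entry, 11 in all. Capitals mark letters that match one of 5 short motifs searched on both strands: TGTTTNC for the FOXA core, TTGCNNAA for the C/EBP core, CAAAGTCCA for the HNF4 core, AGGTCA for one arm of a nuclear receptor site and TATAAA for the TATA box. A match on the opposite strand shows as the reverse complement. The first window belongs to the upstream start of Hnf4a (P2, chr2:163506607-163506856, plus strand), the second to the downstream start that is the main one in adult liver (P1, chr2:163546905-163547154, plus strand), the third to Nr1i2 (chr16:38294825-38295074, minus strand) and the fourth to Nr1i3 (chr1:171213720-171213969, plus strand).
Hnf4a P2: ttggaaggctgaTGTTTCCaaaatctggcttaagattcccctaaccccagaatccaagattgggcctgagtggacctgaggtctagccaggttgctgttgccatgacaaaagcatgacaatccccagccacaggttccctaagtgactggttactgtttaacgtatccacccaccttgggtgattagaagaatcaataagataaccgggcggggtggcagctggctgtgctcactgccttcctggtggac
Hnf4a P1: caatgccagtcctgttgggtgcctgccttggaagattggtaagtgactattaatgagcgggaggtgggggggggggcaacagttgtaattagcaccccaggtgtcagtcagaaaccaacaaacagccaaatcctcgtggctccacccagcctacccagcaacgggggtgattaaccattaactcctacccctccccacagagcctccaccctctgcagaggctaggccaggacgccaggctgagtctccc
Nr1i2: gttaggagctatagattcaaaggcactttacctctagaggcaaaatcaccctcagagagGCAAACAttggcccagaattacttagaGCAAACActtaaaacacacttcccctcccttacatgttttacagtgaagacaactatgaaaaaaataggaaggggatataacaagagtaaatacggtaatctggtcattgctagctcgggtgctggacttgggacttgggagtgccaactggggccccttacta
Nr1i3: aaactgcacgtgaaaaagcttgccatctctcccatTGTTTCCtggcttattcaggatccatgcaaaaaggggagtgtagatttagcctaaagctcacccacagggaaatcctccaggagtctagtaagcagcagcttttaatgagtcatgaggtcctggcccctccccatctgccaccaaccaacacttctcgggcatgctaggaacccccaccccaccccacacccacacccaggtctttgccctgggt

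The P1 window held none of the letters searched. The Hnf4a starts lie 40298 bases apart, and the counts per gene do not separate transcripts of one start from those of the other. FOXA core letters stood once in the P2 window, at 2 places in that of Nr1i2 and once in that of Nr1i3, against 17.8% of all 32851 windows of this length with at least 1. Among all 11 windows of the 8 genes it stood in 4, the other being that of Foxa1. The HNF4 and C/EBP cores, found in 0.384% and 9.56% of all windows, were in none of the 4 windows shown. The same holds for the nuclear receptor arm (14.02%) and the TATA box (12.4%). These are matches of letters and not measured binding sites.

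Between genes, levels were compared as CPM per kilobase of exon. Averaged over the 13 mice, Hnf4a was highest at 124, followed by Cebpa at 109, Nr1i3 at 74.3, Cebpb at 47.1, Foxa3 at 45.1, Nr1i2 at 40.3, Foxa2 at 11.7 and Foxa1 at 5.57. Only the last steps held in every mouse: Nr1i2 stood above Foxa2, and Foxa2 above Foxa1, in 13 of 13 mice. Hnf4a exceeded Cebpa in 10 mice, Cebpa exceeded Nr1i3 in 10 and Nr1i3 exceeded Cebpb in 9. Cebpb, Foxa3 and Nr1i2 were not separable, since Cebpb exceeded Foxa3 in 8 mice and Foxa3 exceeded Nr1i2 in 7. Nr1i3 spanned a 6.69-fold range over the mice and Cebpb a 4.72-fold range, whereas Hnf4a spanned 1.75-fold.

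Between the genotypes, Hnf4a, Foxa1 and Nr1i2 had lower means in Nod2-/- mice (fitted at 0.790, 0.697 and 0.656 of the WT level). Nr1i3 and Foxa2 also had lower means (fitted at 0.698 and 0.870), with 95% intervals that included no difference. Foxa3 had a higher mean, and Cebpa and Cebpb stayed near equal. None of the 8 genes passed 5% FDR with edgeR's quasi-likelihood test, in which 1.16% of the 13545 tested genes did. At an unadjusted p below 0.05 there were 4 of 8, beside 23.1% of all tested genes. The log2 fold change was below 0 for 6 of 8, beside 47.7% of all, and its median was -0.27 over the 8 and 0.02 over all tested genes. No member had separate ranges in the genotypes, which 1.44% of tested genes had. The call depended on the test: DESeq2 called 2 of the 8, Hnf4a and Nr1i2, where it called 8.41% of its genes (4.03% lower and 4.38% higher), and limma's voomWithQualityWeights called Nr1i2 alone, where it called 6.22% (2.39% lower). Without WT replicate 3, edgeR called Nr1i2 and 8.49% of all tested genes (3.37% lower).

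**Figure D1:**
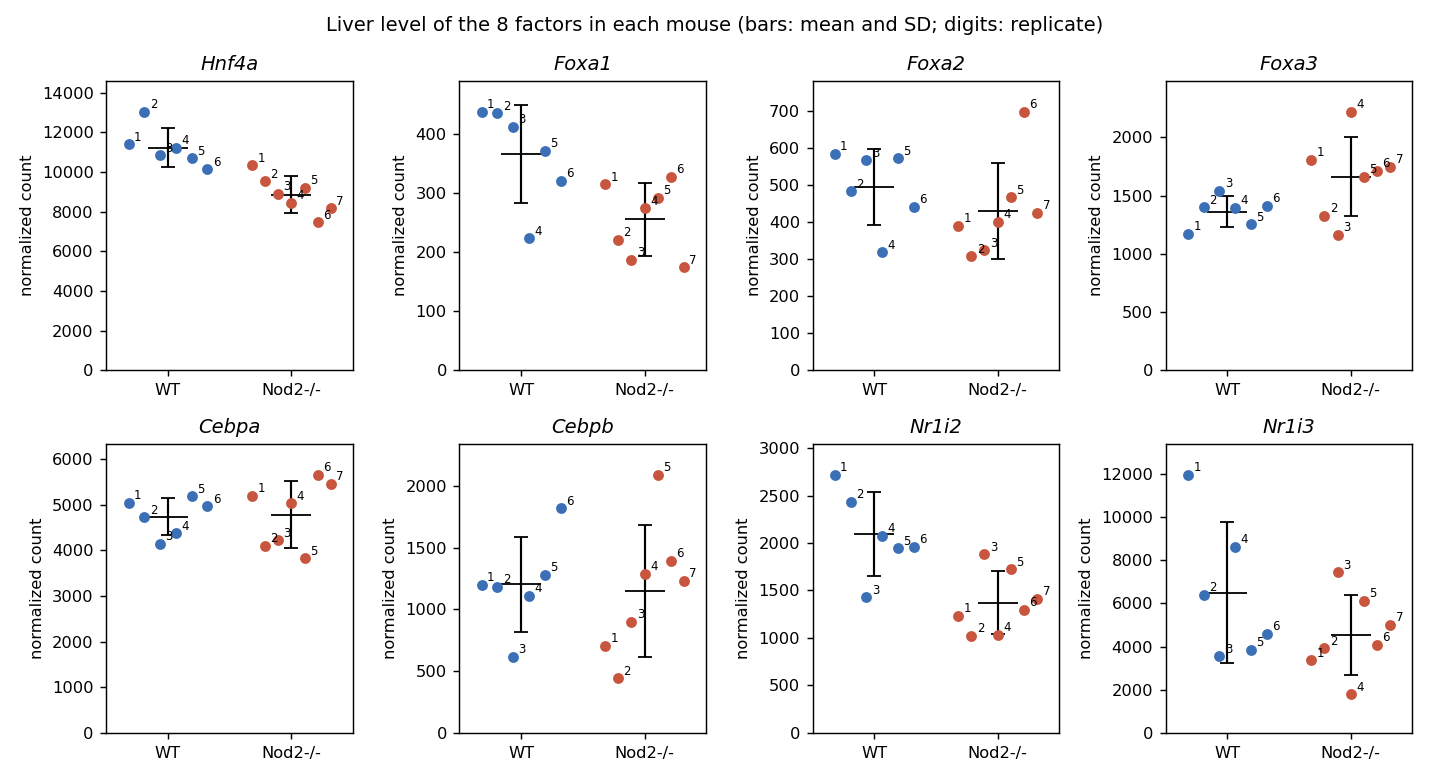
Normalized counts of the 8 factors on linear axes that start at 0, 1 point per mouse with its replicate number, and bars for the mean and SD of 6 WT and 7 Nod2-/- mice. In Hnf4a, 6 of 7 Nod2-/- mice lie below every WT mouse, and in Nr1i2 5 of 7 do. For Foxa2, Foxa3, Cebpa and Cebpb the Nod2-/- range encloses the WT range.

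Hnf4a (chr2:163506808-163572910, plus strand) was among the most abundant transcripts, above 98.5% of tested genes. Its normalized count (the count after TMM scaling, set to a library of average size) was lowest at 10142, median 11033 and highest at 13030 in WT mice, and 7462, 8909 and 10346 in Nod2-/- mice. The ranges touched through 1 Nod2-/- mouse, replicate 1: the other 6 lay below all WT mice, and 5 of 6 WT mice lay above all Nod2-/- mice. The means were 11221 ± 988 (SD, n = 6) and 8866 ± 946 (SD, n = 7), a log2 fold change of -0.34 (SE 0.10, 95% interval -0.55 to -0.13), or 0.790-fold. The two-sided exact permutation test over all 1716 splits of the mice gave p = 0.00175, where the smallest possible p is 0.000583, and the adjusted p was 0.0805 with edgeR and 0.00545 with DESeq2. Variation between mice was small, with a biological coefficient of variation of 14.9%, lower than in all but 3.36% of the 149 genes of similar level. The antisense gene Hnf4aos shares no exonic base with Hnf4a and had 9 to 99 counts.

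Foxa1 (chr12:57540628-57546916, minus strand), a pioneer factor, was the lowest of the 8. It had a lowest, median and highest normalized count of 224, 393 and 438 in WT mice and 174, 274 and 328 in Nod2-/- mice. The ranges overlapped through WT replicate 4 and, at their edges, WT replicate 6 against Nod2-/- replicate 6; all 7 Nod2-/- mice were below the WT median. The means were 367 ± 83.0 (SD, n = 6) and 256 ± 61.8 (SD, n = 7), with a log2 fold change of -0.52 (SE 0.18, 95% interval -0.91 to -0.14), an exact permutation p of 0.0297 and an adjusted edgeR p of 0.117. FOXA1 and FOXA2 are also made in lung epithelium. The 3 WT mice with the highest sums of lung epithelium markers, replicates 4, 2 and 3 at 205, 115 and 57.4 CPM, had 224, 435 and 413 normalized counts of Foxa1. The part of lung RNA in the Foxa1 difference was not tested.

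Foxa2 (chr2:148042877-148046969, minus strand), which acts on bile acid and fasting genes, had 318, 524 and 584 normalized counts as lowest, median and highest WT values and 307, 400 and 696 in Nod2-/- mice. Replicate 6 of the Nod2-/- mice was the highest of all 13 mice, and the ranges overlapped. The means were 494 ± 103 (SD, n = 6) and 430 ± 130 (SD, n = 7), a log2 fold change of -0.20 (SE 0.19, 95% interval -0.60 to 0.20) with an adjusted edgeR p of 0.532. The difference was smaller than the spread between mice.

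Foxa3 (chr7:19013284-19023538, minus strand), the most abundant FOXA gene of the adult liver, went the other way. Its lowest, median and highest values were 1171, 1397 and 1542 in WT and 1164, 1714 and 2218 in Nod2-/- mice. There were 5 Nod2-/- mice above every WT mouse and 1 below every WT mouse. The means were 1362 ± 131 (SD, n = 6) and 1662 ± 341 (SD, n = 7), a log2 fold change of 0.29 (SE 0.13, 95% interval 0.01 to 0.56) with an exact permutation p of 0.0740 and an adjusted edgeR p of 0.199.

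The ratio of Foxa3 to Foxa2 counts within a library, which does not depend on normalization, had a median of 2.81 in WT and 4.11 in Nod2-/- mice. The mean log2 ratio was 0.48 higher in Nod2-/- mice (two-sided exact permutation p = 0.0490, and 0.147 after Benjamini-Hochberg adjustment over the 3 ratios tested). It passed the threshold after adjustment without WT replicate 4 (adjusted exact p = 0.0417) or without Nod2-/- replicate 6 (adjusted exact p = 0.0390). These had the highest WT ratio (4.39) and the lowest Nod2-/- ratio (2.46), so leaving out either one widens the difference by itself. With any other single mouse left out, the exact permutation p was 0.0556 to 0.102 before adjustment.

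**Figure D2:**
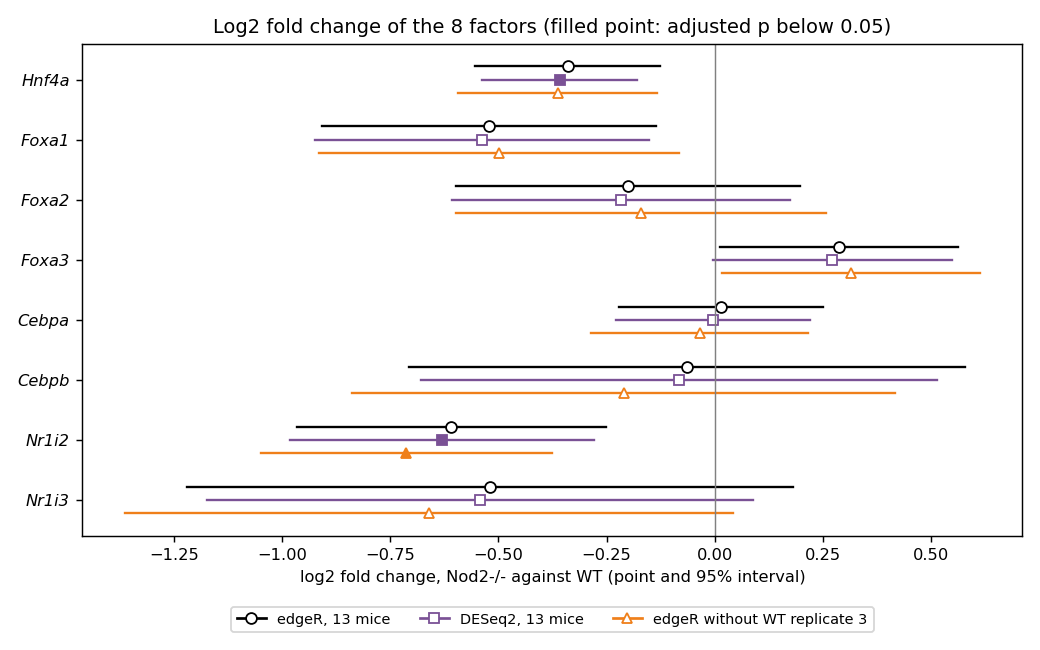
Log2 fold change of each factor, Nod2-/- against WT, as a point with its 95% interval, from edgeR with all 13 mice (circles), DESeq2 (squares) and edgeR without WT replicate 3 (triangles). Filled points have an adjusted p below 0.05: Hnf4a with DESeq2, and Nr1i2 with DESeq2 and without WT replicate 3.

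Cebpa (chr7:35119293-35121928, plus strand) differed little. Its lowest, median and highest values were 4143, 4843 and 5179 in WT and 3820, 5026 and 5654 in Nod2-/- mice. The Nod2-/- range enclosed the WT range. The log2 fold change was 0.01 (SE 0.11, 95% interval -0.22 to 0.25) with an adjusted edgeR p of 0.956.

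Cebpb (chr2:167688915-167690418, plus strand) had 618, 1192 and 1820 normalized counts in WT mice and 443, 1230 and 2091 in Nod2-/- mice, so again the WT range lay within the other. Its mean was 1202 ± 384 (SD, n = 6) against 1150 ± 537 (SD, n = 7), a log2 fold change of -0.06 (SE 0.30, 95% interval -0.71 to 0.58) with an adjusted edgeR p of 0.917. The wide interval goes with a biological coefficient of variation of 37.7%, higher than in 97.3% of the 1373 genes of similar level. Cebpb shares 312 exonic bases with Tmem189 on the opposite strand, which had 142 to 375 counts. The ratio of Cebpa to Cebpb had a median of 4.02 in WT and 4.44 in Nod2-/- mice (difference in mean log2 ratio 0.15, exact permutation p = 0.659, adjusted p = 0.659 over the 3 ratios).

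Nr1i2 (chr16:38248323-38294824, minus strand), the gene of PXR, had the largest fold difference of the 8. Its lowest, median and highest values were 1427, 2017 and 2719 in WT and 1020, 1297 and 1883 in Nod2-/- mice. The lowest WT mouse was replicate 3; the other 5 WT mice lay above all Nod2-/- mice, and 5 of 7 Nod2-/- mice lay below all WT mice. The means were 2093 ± 445 (SD, n = 6) and 1373 ± 328 (SD, n = 7), a log2 fold change of -0.61 (SE 0.17, 95% interval -0.97 to -0.25), or 0.656-fold. The exact permutation p was 0.00932 and the adjusted p was 0.0712 with edgeR, 0.0131 with DESeq2 and 0.0284 with limma voom.

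Nr1i3 (chr1:171213970-171220701, plus strand), the gene of CAR, had lowest, median and highest values of 3554, 5490 and 11964 in WT and 1789, 4083 and 7440 in Nod2-/- mice. WT replicates 1 and 4 lay above all Nod2-/- mice and Nod2-/- replicates 4 and 1 below all WT mice, with the other 9 mice interleaved. The means were 6497 ± 3276 (SD, n = 6) and 4533 ± 1858 (SD, n = 7), a log2 fold change of -0.52 (SE 0.33, 95% interval -1.22 to 0.18) with an adjusted edgeR p of 0.353. Without WT replicate 1 the log2 fold change was -0.25. Nr1i3 shares 3304 of its 4414 exonic bases with Tomm40l on the opposite strand, whose counts of 106 to 409 were far below those of Nr1i3. Whether reads in the shared bases were counted is not known, so the level of Nr1i3 beside the other factors may be too low. The ratio of Nr1i3 to Nr1i2 did not separate the genotypes (difference in mean log2 ratio 0.12, exact permutation p = 0.634, adjusted p = 0.659).

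PXR and CAR levels ran together from mouse to mouse. With the genotype means removed, log2 CPM of Nr1i2 and Nr1i3 had a Pearson r of 0.84 over the 13 mice (permutation p = 6e-04, adjusted p = 0.0060 over 10 pairs) and a Spearman rho of 0.89 (adjusted permutation p = 0.0024). The correlation was 0.82 within the WT mice and 0.85 within the Nod2-/- mice, and 0.87 without the 2 mice farthest from the median of Nr1i2. Foxa1 and Foxa2 also ran together, with an r of 0.72 (adjusted permutation p = 0.0371) that was 0.91 in WT and 0.58 in Nod2-/- mice and 0.79 without the 2 farthest mice. Their rho of 0.64 did not pass after adjustment (adjusted permutation p = 0.0763). In the other 8 pairs tested neither r nor rho passed after adjustment. Among these, Nr1i3 and its target Cyp2b10 had an r of 0.48, Nr1i2 and Cyp3a11 0.45, and Hnf4a and Apoa1 -0.52, with adjusted permutation p-values of 0.255 to 0.308.

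The receptor levels also went with the summed fetal liver and liver tumor markers, in a relation examined after the values had been seen. In these sums the highest means were those of H19 and Akr1c18 in Nod2-/- mice (2429 and 818 normalized counts). In WT mice the highest were those of H19 and Afp (441 and 424). The WT mouse with the highest marker sum, replicate 3 at 355 CPM, had the lowest Nr1i2, Nr1i3, Cebpa and Cebpb of the WT mice and the highest Foxa3. The Nod2-/- mouse with the highest sum, replicate 4 at 581 CPM, had the lowest Nr1i3 of all 13 mice, and its Nr1i2 of 1036 was next to the lowest of 1020. With the genotype means removed, r between the log2 sum and log2 CPM was -0.77 for Nr1i2 and -0.73 for Nr1i3 (adjusted permutation p = 0.0315 for each, over the 8 factors). Spearman's rho was -0.79 and -0.77 (adjusted permutation p = 0.0182 for each). Within WT mice r was -0.94 for Nr1i2 and -0.82 for Nr1i3, and within Nod2-/- mice -0.63 and -0.64. Without the 2 mice farthest from the median marker sum, r was -0.72 for Nr1i2 and -0.67 for Nr1i3. For the other 6 factors the adjusted permutation p of r was between 0.195 and 0.807, with Hnf4a at an r of 0.08 and Foxa3 at 0.50. The part of these markers in the genotype difference of Nr1i2 was not tested.

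**Figure D3:**
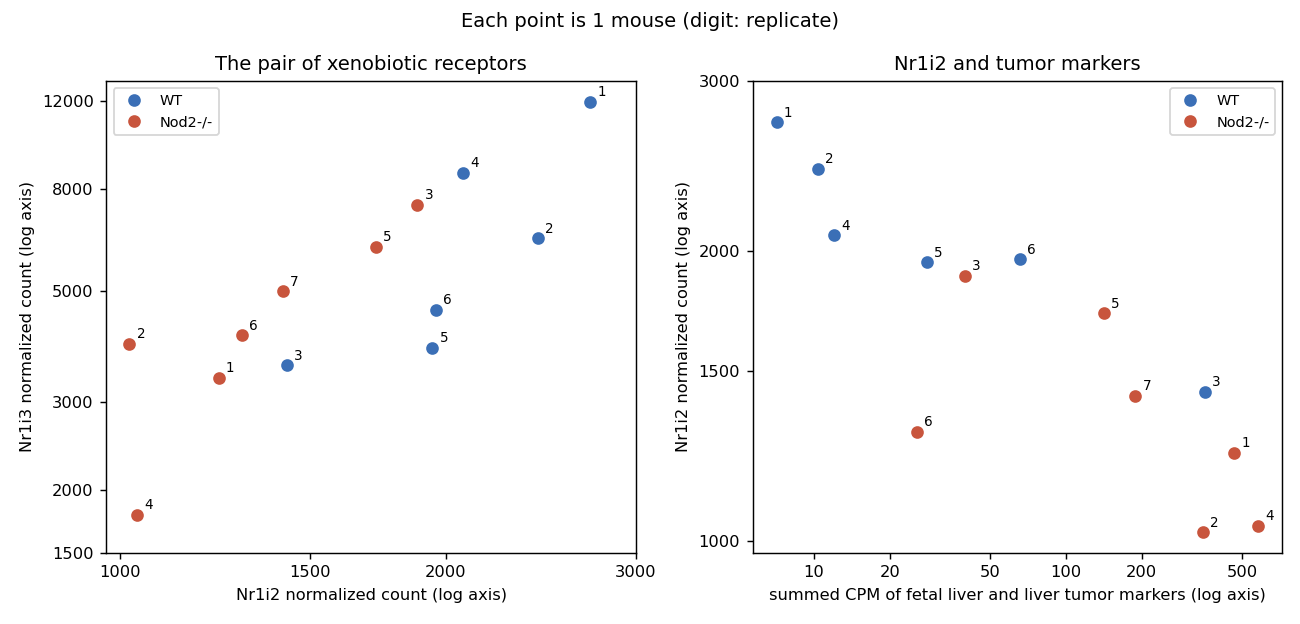
Left, normalized counts of Nr1i3 against those of Nr1i2, and right, normalized counts of Nr1i2 against the summed CPM of fetal liver and liver tumor markers, all on log axes with 1 point per mouse and its replicate number. Mice with more Nr1i2 have more Nr1i3 in both genotypes, and the mice with the highest marker sums, Nod2-/- replicates 4 and 1 at 581 and 465 CPM, are among those with the lowest Nr1i2.

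Among the target genes of CAR, written as a list from general knowledge, lower values in Nod2-/- mice prevailed. Of 18 genes 17 were tested, and 0 passed 5% FDR with edgeR. DESeq2 called 5 lower and 0 higher, beside 4.03% lower and 4.38% higher of all its genes. At an unadjusted p below 0.05 there were 9 lower and 0 higher with edgeR, beside 10.2% of all tested genes lower. The median log2 fold change was -0.60, with 13 values below 0 and 4 above. Ugt1a1, which conjugates bilirubin, had 2479 ± 619 (SD, n = 6) normalized counts in WT and 1317 ± 432 (SD, n = 7) in Nod2-/- mice, with an adjusted p of 0.0585 in edgeR. Por, the electron donor of the microsomal P450 enzymes, had 8358 ± 1984 against 4654 ± 1510 (edgeR, adjusted p = 0.0659). Cyp2c29 and Cyp2a5, the most abundant of the list, had log2 fold changes of -1.02 (SE 0.51) and -1.08 (SE 0.46), with adjusted edgeR p-values of 0.246 and 0.178. The classical CAR target Cyp2b10 had 292 ± 167 (SD, n = 6) against 84.1 ± 115 (SD, n = 7) normalized counts, a log2 fold change of -1.78 (SE 0.69) with an adjusted edgeR p of 0.148. Genes of the Cyp2c and Cyp3a families are close in sequence, so counts may be split between paralogs.

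For PXR, 14 of 17 listed targets were tested, and 0 passed 5% FDR with edgeR. DESeq2 called 1 lower and 0 higher (4.03% and 4.38% of all its genes). At an unadjusted p below 0.05 edgeR had 2 lower (Ces2a and Abcc3) and 1 higher (Cyp3a44), which is 14.3% and 7.14% of the list beside 10.2% and 12.9% of all tested genes, and the median log2 fold change was -0.32. Cyp3a11, the classical PXR target, had 11231 to 41884 normalized counts in WT and 1832 to 31610 in Nod2-/- mice, a log2 fold change of -0.44 (SE 0.51) with an adjusted edgeR p of 0.622. Cyp3a25 had a log2 fold change of -0.36 (SE 0.23). The spread between mice exceeded both differences.

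The 28 listed hepatocyte genes that include the classical HNF4A targets had values in both directions. All were tested, and 0 passed 5% FDR with edgeR. DESeq2 called 1 higher and 5 lower (4.38% and 4.03% of all its genes). With edgeR, 4 were higher and 6 lower at an unadjusted p below 0.05 (12.9% and 10.2% of all tested genes). The median log2 fold change was -0.04. Alb, the gene of serum albumin, had a log2 fold change of 0.21 (SE 0.23) and Apoa1, of the main HDL protein, 0.53 (SE 0.23), with adjusted edgeR p-values of 0.599 and 0.198. A further 12 genes were taken as FOXA and C/EBP targets, mostly of gluconeogenesis and the urea cycle, some of them also in the HNF4A list. With edgeR, 0 passed 5% FDR, and 6 log2 fold changes were above and 6 below 0. At an unadjusted p below 0.05, 1 was higher and 2 lower (12.9% and 10.2% of all tested genes). The higher one was Cdh1, of E-cadherin, which belongs to neither pathway. DESeq2 called 0 higher and 2 lower (4.38% and 4.03% of all its genes). Cps1, the first enzyme of the urea cycle, had a log2 fold change of -0.38 (SE 0.15) and Pck1, of gluconeogenesis, -0.33 (SE 0.21), with adjusted edgeR p-values of 0.150 and 0.372.

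**Figure D4:**
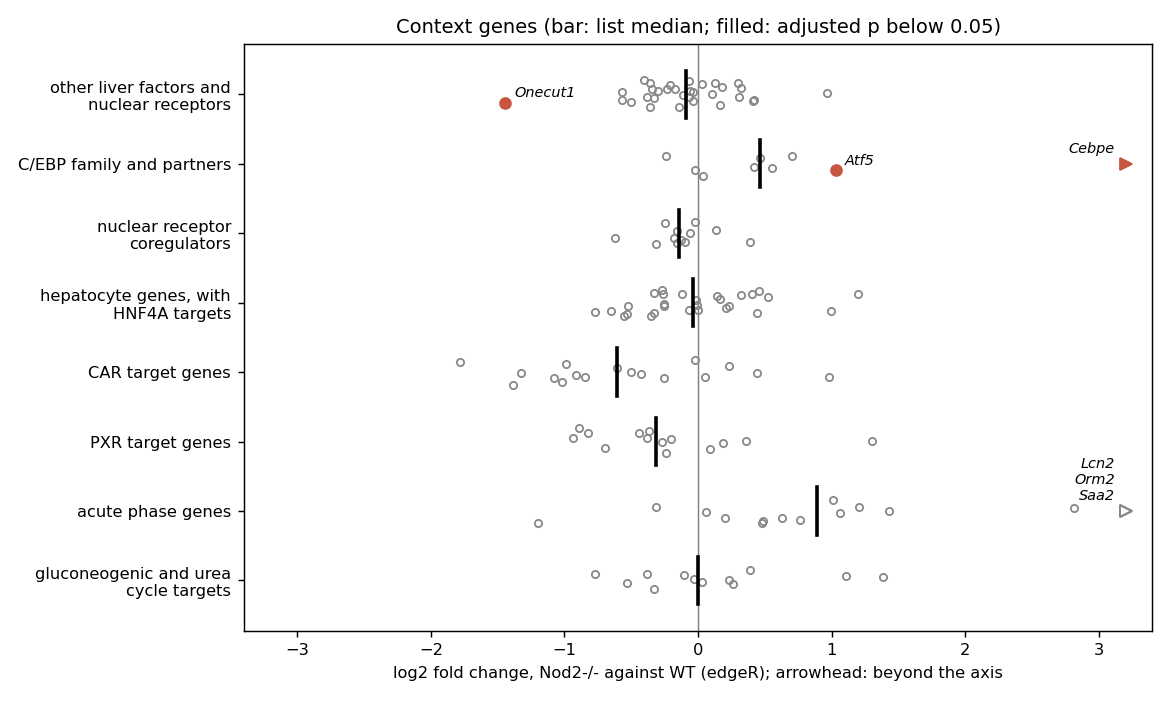
Log2 fold change, Nod2-/- against WT, of the tested genes of 8 lists around the factors, with a bar at each list's median. The medians lie at -0.60 for CAR targets and 0.89 for acute phase genes, and only Onecut1, Atf5 and Cebpe pass 5% FDR (filled); Cebpe and 3 acute phase genes (Saa2, Orm2 and Lcn2, open) lie beyond the axis.

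Acute phase genes, many of them C/EBP beta targets, leaned upwards. All 16 were tested, and 0 passed 5% FDR with edgeR. DESeq2 called 5 higher and 0 lower (4.38% and 4.03% of all its genes). With edgeR, 11 were higher and 0 lower at an unadjusted p below 0.05 (12.9% of all tested genes were higher). The median log2 fold change was 0.89. Hp, of haptoglobin, had a log2 fold change of 1.01 (SE 0.37) and Hpx, of hemopexin, 1.06 (SE 0.31), with adjusted edgeR p-values of 0.132 and 0.0775. Nod2-/- replicate 7, the mouse with the most neutrophil marker RNA, had the highest summed level of the list, 71279 CPM, against a Nod2-/- median of 31208. Lcn2 and Cebpb had an r of 0.12 over the 13 mice with genotype means removed (adjusted permutation p = 0.735).

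Of 34 other liver-enriched factors and nuclear receptors, 32 were tested, and 1 passed 5% FDR with edgeR: Onecut1, also known as HNF6, a factor of hepatocyte and bile duct development, was lower in Nod2-/- mice. It had 270 to 732 normalized counts in WT and 103 to 393 in Nod2-/- mice, with a log2 fold change of -1.44 (SE 0.32, edgeR, adjusted p = 0.0422). DESeq2 called 3 lower and 1 higher (4.03% and 4.38% of all its genes). In all, 9 were lower and 3 higher at an unadjusted p below 0.05 with edgeR (10.2% and 12.9% of all tested genes), and the median log2 fold change was -0.09. Creb3l3, a liver-enriched factor of lipid and acute phase genes, had 9235 ± 954 (SD, n = 6) against 6964 ± 1038 (SD, n = 7), a log2 fold change of -0.41 (SE 0.12, edgeR, adjusted p = 0.0774). Rxra, the partner with which PXR and CAR bind DNA, had 7551 ± 343 against 7224 ± 442, a log2 fold change of -0.06 (SE 0.08, 95% interval -0.23 to 0.11). Of 12 coregulators of nuclear receptors, all were tested and 0 passed 5% FDR with edgeR or DESeq2. At an unadjusted p below 0.05, 2 were lower and 0 higher (10.2% and 12.9% of all tested genes), and the median was -0.14. The corepressor gene Ncor1 had a log2 fold change of -0.32 (SE 0.12, edgeR, adjusted p = 0.139) and the coactivator gene Ncoa2 -0.10 (SE 0.11, edgeR, adjusted p = 0.631).

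Of 11 further C/EBP family members and partners, 9 were tested, with 2 higher and 0 lower at 5% FDR (0.65% of all tested genes were higher), and a median log2 fold change of 0.46. DESeq2 called 3 higher and 0 lower (4.38% and 4.03% of all its genes). Atf5, a leucine-zipper factor of the stress response, had 3312 to 5074 normalized counts in WT and 6648 to 10368 in Nod2-/- mice, with no overlap and a log2 fold change of 1.03 (SE 0.14, edgeR, adjusted p = 0.00244). Cebpe, known from granulocyte maturation, had at most 1.10 normalized counts in any WT mouse and 91.7 to 258 in Nod2-/- mice (edgeR, adjusted p = 4.52e-08). Neutrophil markers ran to 1052 CPM in Nod2-/- mice, in replicate 7, against at most 11.5 in WT. In Nod2-/- replicate 1 they were at 7.08 CPM, within the WT range, while Cebpe was at 91.7 or more in every Nod2-/- mouse. Cebpe was highest in Nod2-/- replicate 3, where neutrophil markers were at 25.0 CPM. The part of neutrophils in the Cebpe difference was not tested. Atf4, which lies upstream of Atf5 in that response, had a log2 fold change of 0.46 (SE 0.14, edgeR, adjusted p = 0.0889, and 0.0483 with DESeq2).

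The tested genes whose log2 CPM was most like that of a factor over the 13 mice, with genotype means removed, were the following 3 for each, by Pearson r and as a description. Cebpb was nearest to Ppp1r16a (0.97), Selenow (0.95) and Stard10 (0.95). Nr1i2 was nearest to Gm43205 (0.95), Smarcd2 (0.93) and Acot4 (0.93), and Nr1i3 to Mcoln1 (0.92), Cct6b (0.91) and Acot4 (0.90), so Acot4, of a peroxisomal acyl-CoA thioesterase, stood near both receptors. Hnf4a was nearest to Tnpo3, Zfp654 and Cela1 (each 0.89), and Cebpa to Gm10093 (0.89), Prkaca (0.88) and Zap70 (0.87). Foxa1 was nearest to Tcp1 (0.89), Vgll4 (0.83) and Memo1 (0.82), Foxa2 to Cish (0.89), Rgs3 (0.88) and Dapk2 (0.83), and Foxa3 to Proser2 (0.89), Cdc5l (0.85) and Scamp2 (0.85). The points share libraries, and each gene was picked as the highest of 13545. Over all mice the lowest r between factors was -0.66, between Foxa3 and Nr1i3.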

How the data were processed

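Poly(A) liver RNA of 13 mice was sequenced as strand-specific paired reads. The authors used Trimmomatic 0.33 for trimming and TopHat2 2.1.1 for mapping to GRCm38, and deposited unnormalized counts of reads per gene. The counting program and its handling of strand and of reads mapping to several places are not given in the sources used here. Reads shared by overlapping genes could therefore count for either gene or for neither. Genotypes came from the labels, which give 30 weeks where the study's methods give a slightly longer time. The study's own comparisons used DESeq2 and are not used here.

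Ensembl identifiers were matched to symbols and positions in GENCODE release M21 on GRCm38 (53360 of 53465 genes), and 1 row with no identifier was left out. The filter filterByExpr left 13545 genes, which held 99.9% of counts. The test was the quasi-likelihood test of edgeR 4.0.16 (R 4.3.3; TMM, glmQLFit and glmQLFTest, two-sided, genotype only), with Benjamini-Hochberg adjustment over all of them at 5% FDR. Adjusted p-values of genes are edgeR's unless DESeq2 1.42.0 or limma 3.58.1 is named. Log2 CPM used a prior count of 2. Correlations used 100000 permutations within genotype. Each library was kept as its own sample, since counts of mice of one genotype differed by more than sampling noise (chi-square over degrees of freedom, 11.7 to 182). All 3 tools were tested on simulated data.

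The 8 factors, the gene lists, the ratios and the pairs were chosen from general knowledge with earlier results of these data known. The named genes are the factors, Nod2, the genes of each list past 5% FDR (up to 5) and its 2 most abundant tested genes, the genes of the pairs, and the 3 genes nearest to each factor. Ugt1a1, Por, Ces2a, Abcc3, Cyp3a44, Saa2, Orm2, Sox9, Spp1, Cdh1, H19, Akr1c18, Afp, Igf2 and the genes that overlap a factor were named after their values were seen. The result of 1 pair is not reported here. The marker relation was added after seeing the data. Of the marker lists not described in the report, stellate and endothelial genes ran from 171 to 394 CPM in WT and 196 to 247 in Nod2-/- mice, gut genes from 200 to 290 and 161 to 308, and pancreas genes, mostly Cela1, from 35.5 to 80.2 and 13.4 to 56.5. Alternatives were DESeq2, voomWithQualityWeights, RLE, library totals, removal of the 20 most abundant genes, no low-count filter, a minimum of 10 counts per mouse, the replicate block, a robust fit and leaving out mice.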

Additional observations from a re-analysis of the deposited data

Results flagged for a closer look

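The 8 factors and the 3 ratios were checked in each genotype, 22 groups in all, for a mouse that stood apart. Dixon's test was used at the 95% level, which chance alone meets in about 1 of 20 groups. It was run on normalized counts and ratios and not on their logs, and the flags can depend on that scale. For 2 groups a mouse stood apart. Nod2-/- replicate 6 had 696 normalized counts of Foxa2, with the next mouse at 467, and this gap was 0.590 of the range of the 7 Nod2-/- mice. WT replicate 3 had a ratio of Cebpa to Cebpb of 6.70, with the next WT mouse at 4.20, and this gap was 0.630 of the WT range. Nod2-/- replicates 1 and 2 had ratios of 7.36 and 9.25.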

How the results depend on the processing

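Foxa1, Foxa2, Foxa3 and Nr1i3 kept their direction and stayed above an adjusted p of 0.05 under each of 23 alternatives. Hnf4a and Nr1i2 kept their direction in all 23. Hnf4a passed 5% FDR in 1 of them (DESeq2, log2 fold change -0.36, members called 2), and Nr1i2 in 5: DESeq2 (-0.63), voom (-0.67, members called 1), without WT replicate 3 (-0.71, edgeR, adjusted p = 0.0227), without Nod2-/- replicate 3 (-0.70, edgeR, adjusted p = 0.0485), and without WT replicate 3 and Nod2-/- replicate 7 together (-0.70, edgeR, adjusted p = 0.0430, members called 1). Over the 13 fits that left out 1 mouse, 0 to 1 factors passed, Hnf4a ran from -0.39 to -0.29, and Nr1i2 from -0.71 to -0.52. Over the 23 alternatives the adjusted p of Hnf4a ran from 0.00545 to 0.189 and that of Nr1i2 from 0.0131 to 0.195.

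All genes past 5% FDR numbered 157, and 1209 with DESeq2, 843 with voom, 35 with the replicate block, 567 without WT replicate 3 and Nod2-/- replicate 7, and 41 to 1156 with 1 mouse left out, the highest without WT replicate 3. They were 88 higher and 69 lower, and 91 higher and 33 lower when scaled by library totals alone. Same-numbered mice did not deviate together (r from -0.30 to 0.30). A weak effect shared by same-numbered mice would not show in this check, so it cannot exclude that the numbers pair them. The replicate block called 0 factors.

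Cebpa, near 0, changed sign: it was -0.0042 with DESeq2, -0.0244 with voom, -0.0035 without a filter, -0.0304 with the replicate block and -0.0557 without WT replicate 3 and Nod2-/- replicate 7, and from -0.035 to 0.0617 with 1 mouse left out. With 1 mouse left out, Cebpb ran from -0.2756 to 0.0927, the log2 ratio of Cebpa to Cebpb from -0.0228 to 0.3672, and that of Foxa3 to Foxa2 from 0.3869 to 0.6134. The cause was not tested. The 95% intervals of Cebpb (-0.71 to 0.58) and Nr1i3 (-1.22 to 0.18) were the widest of the 8.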
